A study of Mus musculus with 35 samples.

Results

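The gasdermin genes were followed through radiation dermatitis in mouse skin, using the rows of the deposited gene table that carry their symbols. The 9 members were Gsdma, Gsdma2, Gsdma3, Gsdmc, Gsdmc2, Gsdmc3, Gsdmc4, Gsdmd and Gsdme, out of 36106 genes, and all 9 symbols were present. The study took whole skin biopsies from 19 female C57BL/6J mice, aged 10 weeks at the start, and 35 such biopsies were sequenced. Radiated skin came from 4 mice at each of weeks 1, 2, 3 and 4 after a left-flank dose of 25 Gy (420 s, dose rate 3.6 Gy per min), and the treated skin was shaved afterwards. Each week also had 4 control libraries, and 3 sham libraries came from mice that were not radiated. No transgene or deletion is named for any group. With 19 mice and 35 libraries, the controls are taken here as unradiated skin of the radiated mice, but the labels give neither their body site nor whether they were shaved, and the sham mice carry no week.

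Gasdermins are pore-forming proteins. Most are made as an inactive chain in which a C-terminal part holds back an N-terminal part; proteases such as caspases, granzymes and neutrophil elastase cut the linker, and the freed N-terminal part assembles into pores in the plasma membrane. The pores let out cytokines such as interleukin-1β and can end in a lytic cell death called pyroptosis. In skin, Gsdma and its copies are known from keratinocytes and hair follicles, and activating mutations of Gsdma3 cause hair loss in mice; Gsdmd is the main target of the inflammasome caspases and is abundant in myeloid cells. These files measure RNA only, and hold nothing on cleavage or pores.

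A pair of gene clusters within the family hold near-copies, so reads of the copies can be assigned to the wrong gene. On the GRCm38 build, with annotation from GENCODE, Gsdma3 (chr11:98626360-98638226), Gsdma2 (chr11:98646759-98657964) and Gsdma (chr11:98664351-98677708) lie in a row on the plus strand. Gsdmc (chr15:63775968-63808759), Gsdmc2 (chr15:63824346-63845177), Gsdmc3 (chr15:63857724-63878558) and Gsdmc4 (chr15:63891264-63912297) lie in a row on the minus strand. Gsdmd (chr15:75862327-75867408, plus strand) and Gsdme (chr6:50188888-50263862, minus strand) stand alone, although Mpp6 overlaps Gsdme on the other strand. All 9 are annotated as protein-coding, with 11 to 14 exons. The first 60 coding bases of the copies, read 5′ to 3′ from the annotated transcripts, show how little separates them; capitals mark bases that differ from the first sequence of each set.
Gsdma: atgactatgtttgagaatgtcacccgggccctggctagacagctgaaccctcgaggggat
Gsdma2: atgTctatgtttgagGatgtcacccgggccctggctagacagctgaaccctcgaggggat
Gsdma3: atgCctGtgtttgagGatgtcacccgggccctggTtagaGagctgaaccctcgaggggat
Gsdmc: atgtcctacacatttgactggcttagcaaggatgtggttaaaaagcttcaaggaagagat
Gsdmc2: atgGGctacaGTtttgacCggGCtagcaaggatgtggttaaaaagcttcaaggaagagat
Gsdmc3: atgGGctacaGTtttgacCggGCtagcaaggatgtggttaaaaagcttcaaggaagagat
Gsdmc4: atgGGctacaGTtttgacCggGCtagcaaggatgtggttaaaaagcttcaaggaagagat
In this window Gsdma2 differs from Gsdma at 2 bases and Gsdma3 at 5, while Gsdmc2, Gsdmc3 and Gsdmc4 are the same 60 bases and differ from Gsdmc at 7.

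Over the whole coding sequence Gsdmc2 and Gsdmc3 were 97.1% identical, each was 93.8% identical to Gsdmc4, and Gsdmc was 87.0% to 87.5% identical to the other three. Identity within the Gsdma set ran from 89.0% to 90.9%. Of the distinct 31-base words in its annotated transcripts, the length kallisto uses by default, Gsdmc shared 23.9% with another gasdermin gene, Gsdmc2 63.9%, Gsdmc3 59.5% and Gsdmc4 51.2%. The shares were 16.4% for Gsdma, 10.9% for Gsdma2 and 20.4% for Gsdma3, and 0% for Gsdmd and Gsdme. The split between copies is therefore uncertain, most so for Gsdmc2, Gsdmc3 and Gsdmc4, and each set was also summed. Over all libraries together Gsdmc held 94.7% of the counts of its set, a share carried by the libraries where Gsdmc was high. By library it was 90.8% to 98.8% in radiated skin of weeks 3 and 4, 46.2% to 100% in controls, 58.8% to 93.3% in sham skin and 12.5% in radiated week 2 replicate 2. Gsdma held 86.1% to 98.1% of its own set in every library.

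The libraries held 17362853 to 28487885 estimated counts. Expression is given as CPM (counts per 1e+06 counts, on scaled library sizes), and a gene is called higher or lower where edgeR's adjusted p over all tested genes is under 0.05. Several libraries stood apart in ways that touch the results. Radiated week 3 replicate 1 had a mean log2 CPM of 4.41 over the differentiated keratinocyte markers, against 8.91 to 9.99 in the week 1 radiated libraries. The hair shaft keratins were high in all 3 sham libraries (summed CPM 262.3 to 3450) and reached at most 1006 in any control and 377.9 in any radiated library. Skeletal muscle markers summed to 5817 to 12560 CPM in sham skin, 14370 to 29080 in week 3 controls and 879.1 to 2064 in week 4 radiated skin. In whole biopsies, fewer cells of a type and less RNA per cell cannot be told apart.

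Gsdmc showed the widest range, as a fold, of the members tested in every comparison. It ran from a trace in most unradiated skin to well above 10 CPM in most radiated skin of weeks 3 and 4. In week 4 its radiated libraries held 43.9, 54.5, 26.7 and 18.4 CPM, and the same-numbered controls held 1.22, 0.531, 0.214 and 0.154. All 4 radiated libraries lay above all 4 controls, and edgeR gave a log2 fold change of 6.16 ± 0.571 (SE), a 71.7-fold difference with an adjusted p of 2.44e-05. In week 3 the radiated libraries held 4.07, 25.5, 42.0 and 92.9 CPM against 0.450, 0.410, 0.976 and 1.31 in controls. These groups did not overlap either, and the log2 fold change was 5.75 ± 0.899 with an adjusted p of 0.00269. Without radiated week 3 replicate 1, the lowest of the 4, it was 6.13 with an adjusted p of 0.00159.

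The first 2 weeks were uneven, with some radiated biopsies already at the late level and others at the control level. In week 1 the radiated libraries held 0.939, 97.4, 40.4 and 8.30 CPM, while the controls held 0.285 to 0.925. The highest value of the whole series was therefore in week 1, and replicate 1 lay just above the highest control. The log2 fold change of 5.75 ± 1.16 was not called (adjusted p 0.19), and without radiated replicate 1 it was 6.14 with an adjusted p of 0.00803. In week 2 replicate 4 held 62.8 CPM, while replicates 1 and 3 held 2.74 and 4.20. Replicate 2 held 0.0585 CPM, which rests on 1 count, and the controls ran from 0.301 to 2.37. The groups overlapped, the log2 fold change of 3.70 ± 1.40 was not called (adjusted p 0.284), and leaving out replicate 4 took it to 0.775 (adjusted p 0.811).

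**Figure D1:**
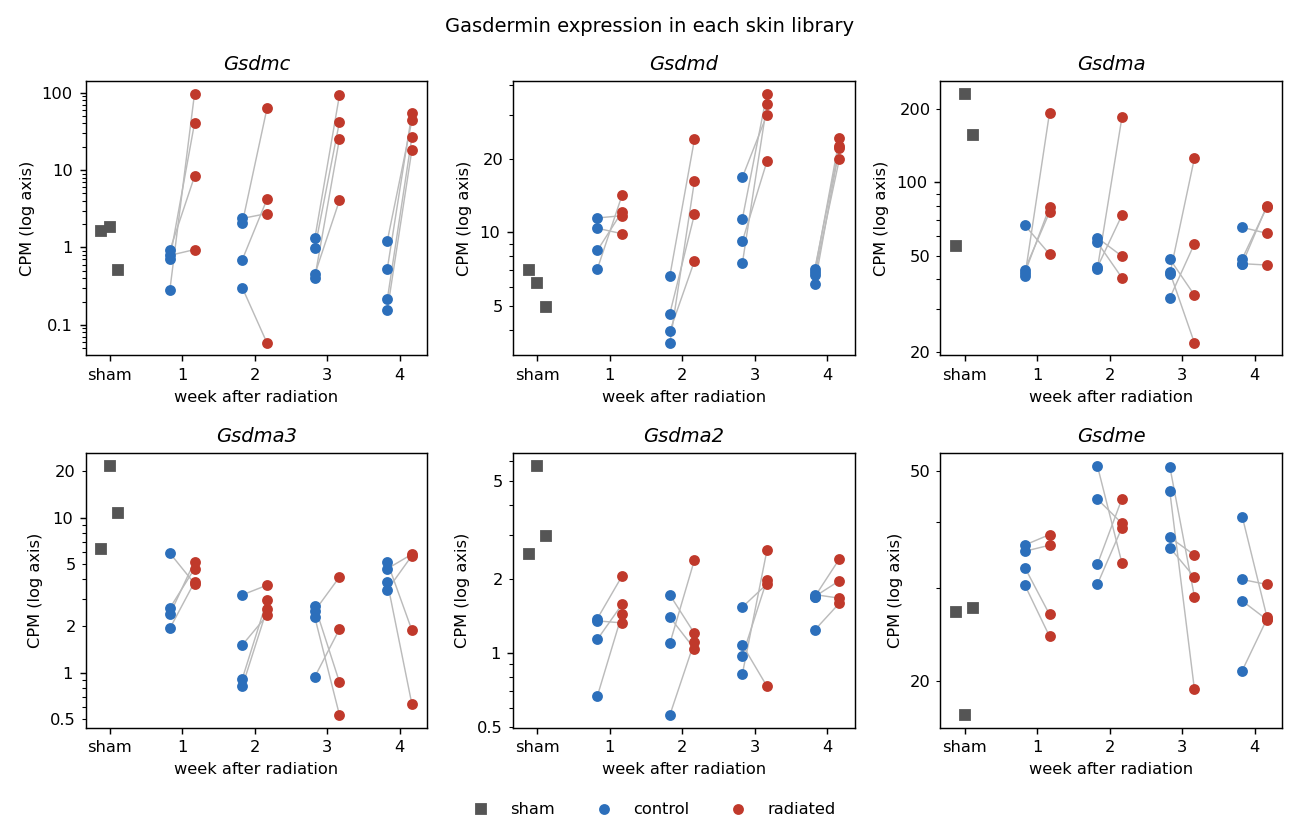
CPM of 6 gasdermin genes in each library (log axis) for sham skin and for weeks 1 to 4, with grey lines joining control and radiated libraries of the same number. Gsdmc and Gsdmd of radiated skin sit above all controls in weeks 3 and 4, while the highest Gsdma3 and Gsdma2 values are sham libraries.

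The other Gsdmc copies were far lower than Gsdmc in radiated skin, and Gsdmc3 and Gsdmc4 lay near the detection limit. Gsdmc2 was above 3 counts in 24 of 35 libraries and ranged from 0 to 5.20 CPM, the highest being radiated week 3 replicate 4 with 113.2 counts. Its week 4 means were 1.36 ± 1.25 (SD, n = 4) in radiated skin and 0.114 ± 0.0622 (n = 4) in controls. It was filtered out of every comparison of radiated with control skin as too low. With no filter, edgeR gave an adjusted p of 0.0309 in week 3 (log2 fold change 4.06) and 0.00368 in week 4 (3.55). Only 1 of 4 controls held more than 3 counts of Gsdmc2 in each of these weeks, so its control level there is near the floor. It was not called in weeks 1 and 2. Gsdmc3 was at 0 in 25 of 35 libraries, among them all of the sham, week 3 control and week 4 control libraries, and its highest value was 0.967 CPM in radiated week 3 replicate 4, the library with the second highest Gsdmc. Gsdmc4 was at 0 in 21 libraries and above 3 counts in 6. A count of 0 allows up to 3 counts, so low expression of both was not detectable at this depth.

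The Gsdmc set was also called in weeks 3 and 4 when summed. The sum was 37.4 ± 17.5 CPM (SD, n = 4) in week 4 radiated skin and 0.709 ± 0.645 (n = 4) in controls, with a log2 fold change of 5.80 ± 0.575 and an adjusted p of 3.7e-05. In week 3 the log2 fold change was 5.63 (adjusted p 0.00278), and in weeks 1 and 2 the values of 5.44 and 3.44 were not called (adjusted p 0.19 and 0.265). In week 1 the summed groups overlapped, since radiated replicate 1 held 1.07 CPM and control replicate 4 held 1.22.

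In weeks 1 and 2 the radiated libraries with the most Gsdmc also had the most epidermal injury keratin RNA. The list of wound or stressed keratinocyte markers (Krt6a, Krt6b, Krt16, Krt17, S100a8 and Sprr1b) rose in 6 of 6 genes in weeks 3 and 4, with a median log2 fold change of 7.06 in week 4. In week 1 its mean log2 CPM was 9.42, 8.30 and 4.87 in the libraries with 97.4, 40.4 and 8.30 CPM of Gsdmc and 2.82 in the one with 0.939. In week 2 it was 9.45 in replicate 4 and 3.89 to 6.03 in the others, and in the controls of all weeks it was 2.71 to 5.08. The later weeks did not keep this order. Replicate 1 of radiated week 3 had a marker mean of 8.58 and only 4.07 CPM of Gsdmc, and the week 4 radiated libraries had marker means of 9.34 to 9.62 with 18.4 to 54.5 CPM. The part of these cells in the Gsdmc result was not tested. Across the 35 libraries the genes most like Gsdmc were Sprr2a2, a cornified envelope protein gene (Pearson r 0.952), and the stefin-family genes Stfa3 (0.951) and Cstdc5 (0.945), out of 16401 genes compared. The libraries differ together in many genes, so these values describe the pattern only.

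Gsdmd, the inflammasome target, was also called in weeks 3 and 4, with smaller fold changes than Gsdmc. In week 4 the radiated libraries held 22.2, 19.9, 22.5 and 24.2 CPM against 6.14, 6.72, 7.09 and 6.92 in the same-numbered controls. The SDs were 1.74 and 0.414 CPM, and the log2 fold change of 1.73 ± 0.111 (3.31-fold) had an adjusted p of 3.94e-06. In week 3 the radiated libraries held 33.3, 30.2, 36.8 and 19.5 CPM against 7.47, 16.8, 11.3 and 9.19. The groups stayed apart, with a log2 fold change of 1.44 ± 0.288 and an adjusted p of 0.00677, or 1.39 and 0.0167 without radiated replicate 1.

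In week 2 Gsdmd held 24.0, 7.66, 11.9 and 16.2 CPM in radiated skin against 6.65, 3.96, 4.67 and 3.55 in controls. The groups did not overlap and each radiated library was above its same-numbered control, but the log2 fold change of 1.66 ± 0.352 was not called with an adjusted p of 0.135. With the replicate number as a block it was 1.58 ± 0.243 with an adjusted p of 0.0208. In week 1 the values of 11.7, 9.88, 12.1 and 14.2 CPM overlapped the control range of 7.11 to 11.4, and the log2 fold change of 0.36 ± 0.204 was not called (adjusted p 0.428).

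Macrophage markers moved with Gsdmd. In week 4 all 6 (Adgre1, Csf1r, C1qa, C1qb, Cd68 and Mrc1) were called higher, with a median log2 fold change of 2.72, and in week 3 this was 3 of 6. Of all genes tested, 48.4% were called in week 4 and 27.2% in week 3, in both directions together. The summed CPM of the macrophage markers in week 4 was 1077 to 1446 in radiated skin and 160.7 to 277 in controls. Week 3 control replicate 2, the control highest for Gsdmd at 16.8 CPM, also had the highest macrophage sum of any control (921.9). Neutrophil markers summed to 190.4 to 386 CPM in week 4 radiated skin against 10.4 to 14.0 in controls. The part of either cell type in the Gsdmd result was not tested. The genes most like Gsdmd over 35 libraries were Nckap1l (Pearson r 0.978), Fermt3 (0.976) and Cyba (0.974), which encode an actin regulator and an integrin activator of blood cells and a subunit of the phagocyte oxidase.

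**Figure D2:**
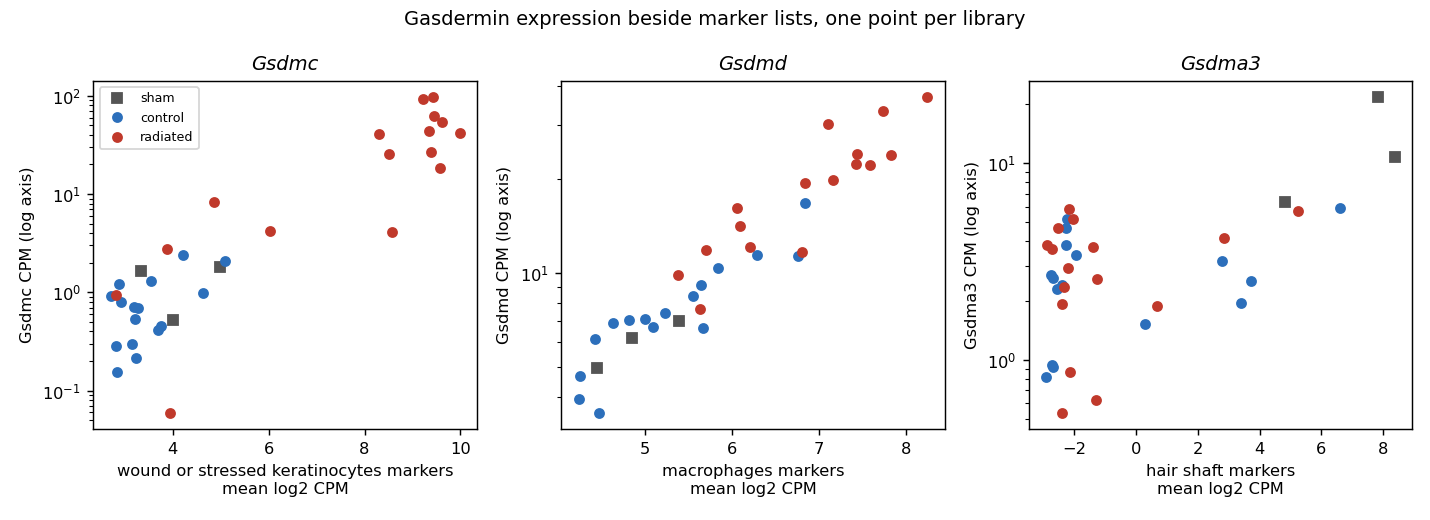
CPM of Gsdmc, Gsdmd and Gsdma3 (log axis) against the mean log2 CPM of a marker list, with 1 point for each of 35 libraries. Libraries with a wound keratinocyte mean above 8 hold 4.07 to 97.4 CPM of Gsdmc, Gsdmd rises along the macrophage markers, and the 2 sham libraries with the most hair shaft signal hold the most Gsdma3.

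Gsdma, the keratinocyte gasdermin and the most abundant member, was not called between radiated and control skin in any week. Radiated values were 50.7, 193.5, 79.0 and 75.4 CPM in week 1, and 40.5, 49.7, 73.4 and 185.9 in week 2. The high library in each of these weeks was also the one highest for Gsdmc. Week 3 held 21.8, 34.3, 55.9 and 126.1 CPM and week 4 held 61.7, 79.2, 80.2 and 45.7, while the controls of all weeks lay between 33.4 and 66.6. The groups overlapped in every week, and the log2 fold changes were 1.05, 0.78, 0.54 and 0.38 with adjusted p of 0.266, 0.462, 0.401 and 0.121. The week 4 value passed when radiated replicate 4 (adjusted p 0.0213) or control replicate 1 (0.0353) was left out. The genes most like Gsdma were Otub2 (Pearson r 0.901), Dnase1l2, a nuclease of cornifying keratinocytes (0.87), and Dusp14 (0.85).

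Gsdma2 and Gsdma3 were low and were not called against controls either. In week 4 Gsdma3 held 1.88, 5.82, 5.70 and 0.625 CPM in radiated skin against 5.19, 4.69, 3.42 and 3.84 in controls. The week 4 radiated values straddled the controls, and the log2 fold change was -0.28 (adjusted p 0.7). In week 2 it held 3.67, 2.57, 2.94 and 2.34 CPM against 3.18, 0.817, 0.917 and 1.51, higher in each of the 4 same-numbered pairs, with overlapping groups. The log2 fold changes in weeks 1, 2 and 3 were 0.45, 0.84 and -0.16 (adjusted p 0.559, 0.43 and 0.87). Gsdma2 lay between 0.732 and 2.61 CPM in radiated skin and between 0.559 and 1.73 in controls. The summed Gsdma set was not called in any week, with log2 fold changes of 1.01, 0.77, 0.52 and 0.33.

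Gsdme, a gasdermin first known from a form of inherited deafness, was the steadiest member, at 17.2 to 51.1 CPM in all libraries. In week 3 its radiated libraries held 28.9, 34.6, 19.2 and 31.4 CPM, all below the control range of 35.7 to 50.9. The log2 fold change of -0.55 ± 0.202 was not called (adjusted p 0.0719), although DESeq2 gave 0.0447. In weeks 1, 2 and 4 it was -0.10, -0.03 and -0.15, and none was called. Mpp6, which overlaps Gsdme, fell in week 3 (log2 fold change -0.95, adjusted p 0.00796), and the counting is not stated to use strand.

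Across the 4 weeks, the members called of 6 tested against controls were 0, 0, 2 and 2, the 2 being Gsdmc and Gsdmd, both higher. The share of all tested genes called in the same comparisons was 0%, 0.00577%, 27.2% and 48.4%, so 2 of 6 members lies near the background of weeks 3 and 4. In week 1, 2477 genes had an unadjusted p under 0.05 in edgeR and 2719 in DESeq2, and DESeq2 called 423 at an adjusted p under 0.05. For week 2, DESeq2 called 734 genes (4.23%) and edgeR with the replicate block 641 (3.7%), with 1 member among them in each.

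**Figure D3:**
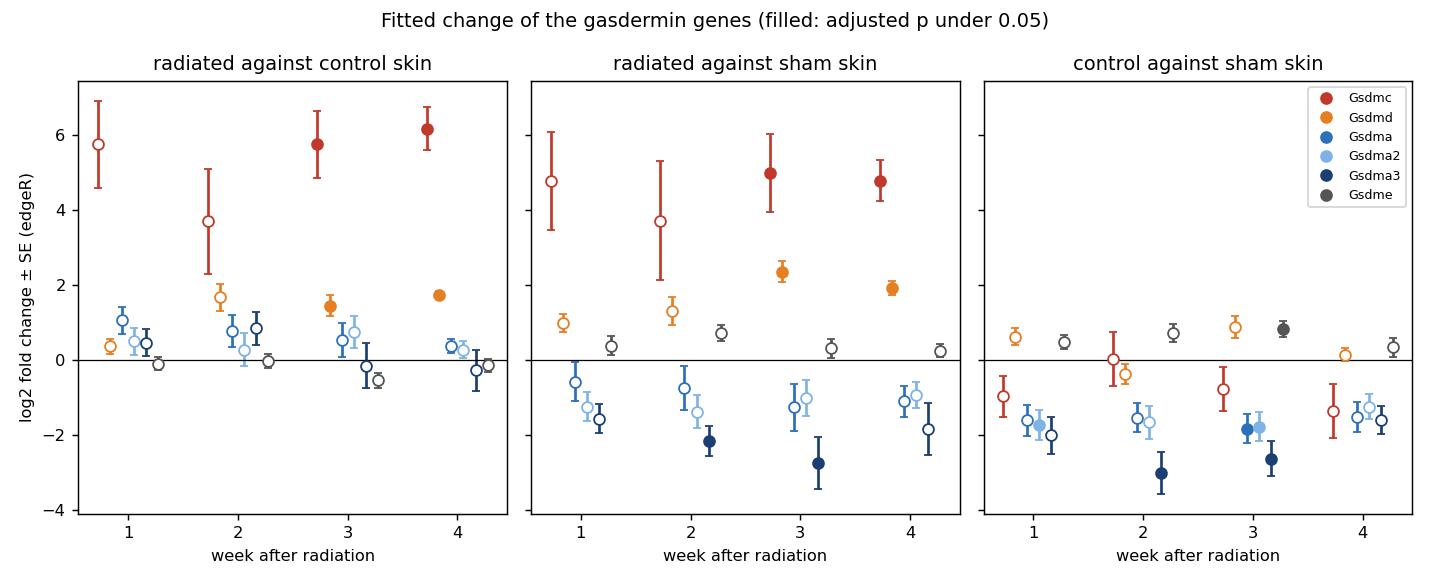
Log2 fold change with its SE for 6 gasdermin genes in weeks 1 to 4, as radiated against control, radiated against sham and control against sham skin; filled points have an adjusted p under 0.05. Gsdmc and Gsdmd are filled above 0 in weeks 3 and 4 against both references, and the Gsdma genes lie below 0 against sham skin.

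Whether the radiated-control difference itself changed over the weeks was tested with all 32 of those libraries in 1 model. Of 8 members tested, 1 was called, against 15.6% of all genes: Gsdmd, with an adjusted p of 0.0314. Its log2 difference was 0.36 in week 1 and 1.44 to 1.73 afterwards. The call was lost without any of the 4 replicate numbers (adjusted p 0.0693 to 0.17) and with total-count scaling (0.054). For Gsdmc the adjusted p was 0.636. No member was called for the step from week 2 to 3, against 6.9% of all genes, or from week 3 to 4, against 0.419%.

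The sham libraries gave a second reference, shared by every comparison with them. Gsdmc held 1.63, 1.82 and 0.516 CPM in sham skin, and edgeR called it higher in radiated skin of week 3 (log2 fold change 4.98 ± 1.03, adjusted p 0.0157) and week 4 (4.78 ± 0.545, 0.00065). The week 3 call was lost without sham replicate 2 (0.0559) or 3 (0.0568). Gsdmd held 7.02, 6.20 and 4.96 CPM in sham skin and was higher in radiated skin of week 3 (2.35 ± 0.279, 0.00462) and week 4 (1.91 ± 0.180, 0.000322). For week 4 all radiated values of both genes lay above all sham values.

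The Gsdma cluster was highest in sham skin. Gsdma held 54.8, 232.6 and 156.4 CPM there, Gsdma3 held 6.31, 21.7 and 10.8, and Gsdma2 held 2.52, 5.77 and 3.00. All 3 sham libraries exceeded all 16 controls for Gsdma3, whose highest control held 5.91 CPM, and for Gsdma2, whose highest control held 1.73; for Gsdma, sham replicate 1 lay inside the control range. In control skin Gsdma3 was called lower in week 2 (log2 fold change -3.02, adjusted p 0.039) and week 3 (-2.63, 0.015), Gsdma2 in week 1 (-1.73, 0.0467) and week 3 (-1.78, 0.0257), and Gsdma in week 3 (-1.84, 0.023). In radiated skin Gsdma3 was called lower in week 2 (-2.16, 0.0236) and week 3 (-2.76, 0.028).

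Of these calls, Gsdma3 in week 3 controls was kept when any of the 7 libraries was left out (log2 fold change -2.96 to -2.04), and each of the others was lost without sham replicate 2, without sham replicate 3 or without some libraries of the other group. Gsdma3 in week 2 controls went to adjusted p of 0.109 to 0.133 without either sham library or control replicate 2, 3 or 4. In week 2 radiated skin it went to 0.0546 to 0.0868 without either sham library or radiated replicate 2 or 3, and in week 3 radiated skin to 0.0512 to 0.108 without either or radiated replicate 1, 2 or 3. Gsdma in week 3 controls went to 0.0546 to 0.0714 without either or control replicate 1, 2 or 3. Gsdma2 went to 0.0543 to 0.0899 in week 3 controls without either or control replicate 1, 2 or 4, and to 0.1 to 0.118 in week 1 controls without either or control replicate 2, 3 or 4. Without sham replicate 1, instead, Gsdma was called lower in controls of weeks 1, 2 and 4 (0.00802, 0.00216 and 0.000775). Hair shaft keratins were also high in sham skin, with a summed CPM of 262.3 in replicate 1 and 2483 and 3450 in replicates 2 and 3, against at most 1006 in any control. In controls 0, 5, 6 and 8 of 8 were called lower than sham in weeks 1 to 4, and in radiated skin 8, 8, 7 and 1 of 8. Their median log2 fold change in controls was -2.86, -6.94, -5.96 and -11.2 in weeks 1 to 4, where Gsdma3 was at -2.02, -3.02, -2.63 and -1.61 and Gsdma at -1.62, -1.54, -1.84 and -1.53, called or not. Their part in the Gsdma results was not tested. The sham and control groups also differ in whether the mouse was radiated, and possibly in site, shaving and day, which cannot be told apart.

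Gsdme was higher than sham in week 3 controls (log2 fold change 0.82, adjusted p 0.0404), where the 5 skeletal muscle markers ran 1.20 to 1.55 log2 units above sham, 3 of them called. In controls of weeks 1 and 2 these markers ran 1.38 to 1.87 and 1.59 to 2.02 above sham. Gsdme was at 0.49 and 0.72 there and not called. In week 4 the markers were at -0.05 to 0.26 and Gsdme at 0.34, not called. The part of muscle in the Gsdme result was not tested. The Gsdme call was lost without any of the libraries except sham replicate 1. The members called were 0 of 7, 1 of 6, 3 of 7 and 2 of 7 for radiated against sham skin in weeks 1 to 4, where 1.75%, 5.06%, 18.2% and 26.7% of all genes were called. For control against sham skin they were 1, 1, 4 and 0 of 6, with 4.92%, 2.44%, 11.4% and 3.65% of all genes called.

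Per kilobase of transcript, the order of the family changed between the groups. In sham skin the mean CPM per kb was 54.3 ± 32.7 (SD, n = 3) for Gsdma, then 9.54 for Gsdme, 8.76 for Gsdma3, 3.38 for Gsdmd, 2.25 for Gsdma2 and 0.551 for Gsdmc. Gsdme was above Gsdma3 in 2 of the 3 sham libraries, and each of the other neighbours in this order kept its place in all 3. In week 4 controls Gsdma led at 18.9, with Gsdme at 12.1 ± 3.31 (n = 4), Gsdmd at 3.75 ± 0.231, Gsdma3 at 2.90 ± 0.542, Gsdma2 at 0.949 and Gsdmc at 0.22; Gsdmd was above Gsdma3 in 3 of the 4 libraries and the other neighbours kept their order in all 4. In week 4 radiated skin Gsdma held 24.5 ± 6.01, Gsdmc 14.9 ± 6.79, Gsdmd 12.4 ± 0.972 and Gsdme 10.9 ± 0.841 (each n = 4). Library by library, Gsdma was above Gsdmc in 4 of 4 (22.6, 29.1, 29.4 and 16.8 against 18.3, 22.6, 11.1 and 7.64), Gsdmc was above Gsdmd in 2 of 4, and Gsdmd was above Gsdme in 4 of 4. Gsdmc, last of these 6 in controls, thus lay below Gsdma in each of these libraries and had no fixed order with Gsdmd.

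The genes around the gasdermins in pyroptosis were read from 7 lists of 36 genes in all, in radiated against control skin. None was called in weeks 1 and 2 by edgeR. With the replicate number as a block, Naip6, Zbp1, Il1b, Mlkl and Nlrp3 were higher in week 2 (adjusted p 0.0139, 0.0165, 0.0193, 0.0428 and 0.0431), where 3.7% of all genes were called, and still none in week 1. In week 3, 15 were higher and 3 lower of 32 tested, with a median log2 fold change of 0.62 against 0.08 over all genes, and in week 4, 20 were higher and 5 lower of 32, with a median of 0.64 against 0.02. Of all genes tested, 27.2% were called in week 3 and 48.4% in week 4, in both directions together. With total-count scaling the list median was 0.845 against 0.317 over all genes in week 3 and 0.722 against 0.106 in week 4; no called gene changed sign, and Chmp3 and Vps4a lost their week 3 calls. Cell markers moved in the same weeks. In week 4 the mean log2 CPM was 3.89 in radiated skin and -0.645 in controls for neutrophil markers, 7.41 and 4.74 for macrophage markers, and 7.46 and 9.41 for differentiated keratinocyte markers. In week 3 these were 3.58 and -0.517, 7.49 and 6.12, and 7.26 and 9.01. The part of these cells in the pathway results was not tested.

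Of the inflammasome sensors and their adaptor, 9 of 13 tested were higher and 3 lower in week 4. Nlrp3, the sensor of membrane and ion disturbance, held 34.3 ± 15.9 CPM (SD, n = 4) in radiated skin and 1.67 ± 0.473 (n = 4) in controls, a log2 fold change of 4.36 with an adjusted p of 2e-05. Mefv, which encodes pyrin, rose by 3.89, Naip5, a flagellin sensor, by 2.06, and Aim2, a sensor of cytosolic DNA, by 1.05. Nlrp10, a family member known from keratinocytes, fell by 2.52 on the log2 scale, from 102.9 ± 5.71 to 17.9 ± 2.00 CPM (adjusted p 5.39e-07). Pycard, the shared adaptor ASC, and Nek7, the Nlrp3 partner, also fell, by 0.87 and 0.66. In week 3 the list gave 9 higher and 1 lower, the lower again being Nlrp10 (log2 fold change -2.12, adjusted p 0.00947).

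The proteases that cut gasdermins gave 3 higher of 4 tested in week 4. Gzmb, the granzyme that can cut Gsdme, rose by 3.45 on the log2 scale from a low control level of 0.274 CPM. Casp8 and Casp4 rose by 0.65 and 0.63. Casp1, the classical Gsdmd protease, held 18.3 ± 4.76 CPM (SD, n = 4) in radiated skin and 22.4 ± 7.39 (n = 4) in controls and was not called (adjusted p 0.357), nor was it in week 3 (0.304). Elane and Ctsg, the neutrophil proteases, were under 0.2 CPM in both groups and untested.

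Of the cytokines that leave through gasdermin pores, Il1b held 81.4 ± 32.2 CPM (SD, n = 4) in week 4 radiated skin against 3.21 ± 1.42 (n = 4), a log2 fold change of 4.69 (adjusted p 1.8e-05), and in week 3 it was 4.49 (0.00164). Il1a and Il18 were not called in either week (week 4 values -0.28 and -0.51). Ninj1, which carries out the final membrane rupture, was higher in week 4 (1.51, adjusted p 0.000207) and not called in week 3 (1.16, 0.103). Of the membrane repair genes, Chmp3 and Vps4a were lower in week 4 (-0.79 and -0.48) and Chmp4b slightly higher (0.22).

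Of the transcription factors linked to gasdermin genes, Irf1 and Stat3 were higher in week 4 (0.52 and 1.00), while Irf2, the reported activator of Gsdmd, held 74.8 and 80.5 CPM and was not called (adjusted p 0.335). Trp53 was not called (0.0546). The necroptosis genes, a separate route to lytic death, gave 3 higher of 4: Ripk3 (2.74), Zbp1 (2.21) and its pore former Mlkl (1.77), with Ripk1 at 0.00. Pjvk, the remaining family member, was at or near 0 and untested.

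**Figure D4:**
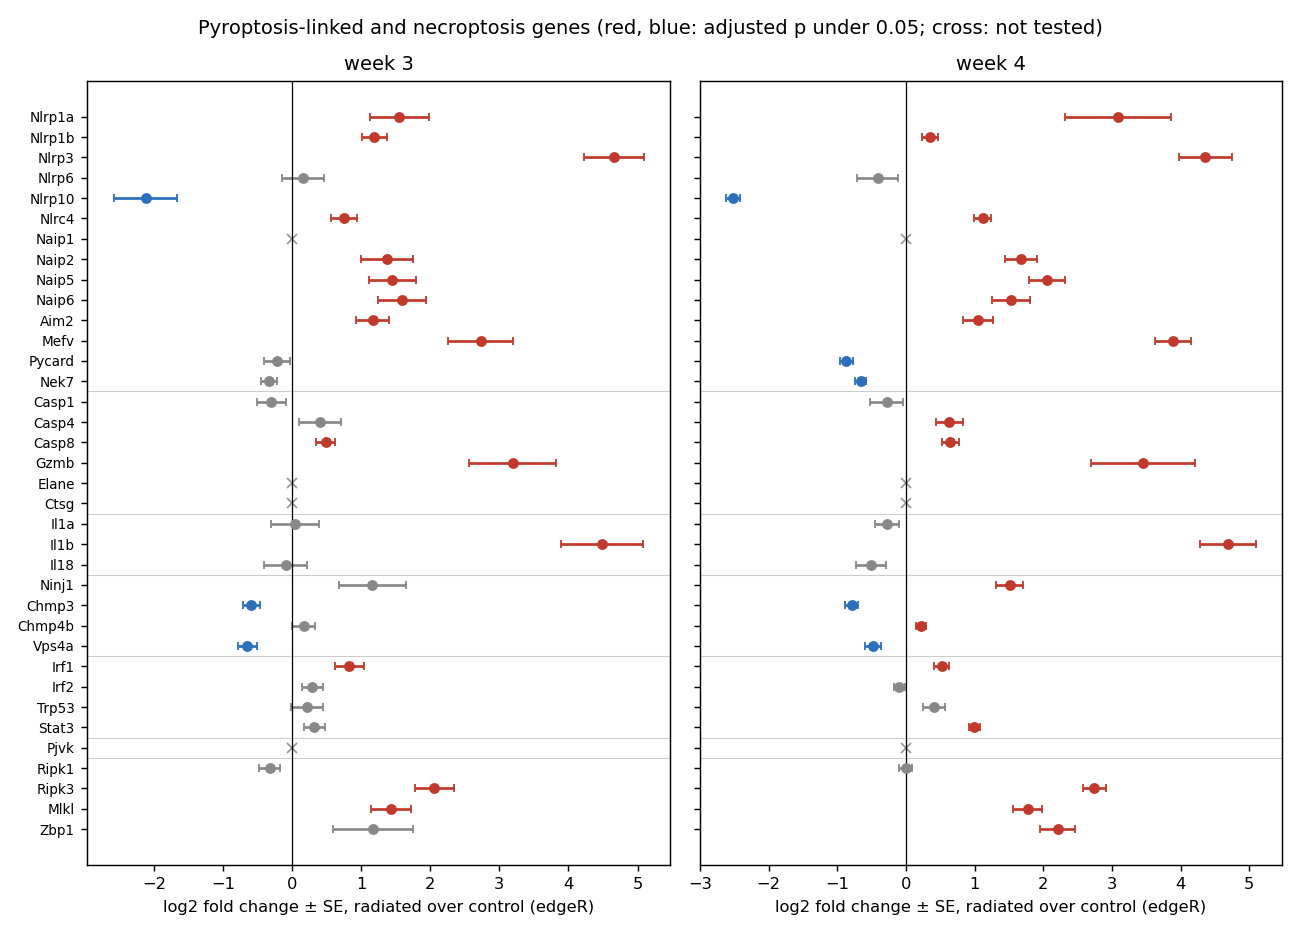
Log2 fold change with its SE of the 36 listed genes in radiated against control skin of week 3 and week 4; red and blue points have an adjusted p under 0.05 and crosses were not tested. Nlrp3, Il1b, Mefv and Gzmb lie farthest right and Nlrp10 farthest left in both weeks.

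Genes next to the gasdermin clusters were measured for context. Of 28 neighbours, 16 were tested in week 3, with 5 higher and 3 lower, and 18 in week 4, with 7 higher and 5 lower, where 27.2% and 48.4% of all genes were called. Beside the Gsdmc cluster, Fam49b rose by 1.33 in week 3 and 1.51 in week 4 on the log2 scale, and held 96.5 ± 18.0 CPM (SD, n = 4) in week 4 radiated skin against 34.0 ± 4.21 (n = 4). The pseudogene Gsdmcl-ps, 2151 bases from the cluster, was higher in week 3 (2.73, adjusted p 0.0117) and week 4 (2.61, 0.0018), at 1.56 CPM in week 4 radiated skin. It resembles the Gsdmc genes in name and may share reads with them, which was not tested. Gsdmcl2, a pseudogene of similar name inside the cluster, was higher in week 3 (1.36, adjusted p 0.0334) and not called in week 4 (-0.09, 0.877). Beside the Gsdma cluster, Csf3, the granulocyte growth factor gene, rose by 4.23 and 6.43 from under 1 CPM, while Ormdl3 fell by 0.78 in week 4.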

How the data were processed

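Whole skin RNA of 35 libraries was sequenced, and per the labels' protocols the authors analysed it with kallisto and DESeq2; per the submitters' processing notes the tools were Trim Galore 0.6.7 and kallisto 0.46.2 with the build mm10. The deposited table holds estimated counts per gene, of which 29.5% to 32.5% per library are not whole; they were rounded. The transcript release and strand setting are not given in the sources used here. Of 36106 genes, 7468 were at 0 everywhere. No library pair of 595 was identical, and the smallest reduced chi-square of 51 pairs within a group was 21.2. That replicates came from separate mice follows from the stated number of 19.

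Each of 12 comparisons was fitted alone with edgeR 4.0.16 (filterByExpr, TMM scaling, quasi-likelihood F test, Benjamini-Hochberg adjustment over all tested genes), and changes over weeks in 1 model. Levels are CPM on TMM-scaled libraries of 19813 genes; log2 CPM used a prior count of 2. DESeq2 1.42.0, total-count scaling, no filter, unrounded counts, a replicate block, 1 fit of all 35 libraries and leaving out each library were alternatives. The main edgeR fit was tried on simulated data for radiated against control skin of weeks 3 and 4. The other fits and comparisons were not. Total counts limit precision: values of 3 counts or fewer were read as not detected, which covers counting error only. Marker and pathway lists, the members and the rule for named genes (every member, its 3 most alike genes among those averaging 1 CPM or more, listed pathway genes, 3 neighbours on each side) were chosen with earlier results of these data known. Positions, transcripts and lengths (the transcript with the longest coding sequence) came from GENCODE; identity used Biopython 1.88 alignments. A radiated and a control library that share week and number were treated as 1 mouse only in the replicate block, an inference from the 19 mice. The main fits, and the main model of changes over weeks, took all libraries as independent. Deviations of same-numbered libraries from their group means correlated at a mean r of 0.071, 0.17, 0.053 and -0.02 in weeks 1 to 4 (other numbers -0.024, -0.057, -0.017 and 0.0074). Sham libraries share only numbers with the rest. RefSeq protein sequences were not used here, and 1 listed pathway gene is not reported here and was left out of the list counts.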

Additional observations from a re-analysis of the deposited data

Results flagged for a closer look

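In groups of 4, on log2 CPM, 6 of 56 gene and group combinations had a library farther from the others than Dixon's 95% limit. Chance flags about 1 in 20. Gsdmc in radiated week 2 was not flagged on this scale, although leaving out replicate 4 took its log2 fold change against controls from 3.70 to 0.775. Gsdma was high in control week 1 replicate 1 (66.6 CPM, the others at 41.1 to 43.8), a library that also held the highest hair shaft sum of the controls, and in control week 4 replicate 1 (65.3 CPM, the others at 46.2 to 48.6). Gsdma2 was high in radiated week 2 replicate 1 (2.39 CPM) and low in control week 4 replicate 3 (1.24 CPM). Gsdma3 was low in control week 3 replicate 2 (0.942 CPM), the control with the most Gsdmd. Gsdme was high in radiated week 4 replicate 4 (30.4 CPM, the others at 26.1 to 26.4).

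The radiated-control difference of Gsdmd differed between weeks in the edgeR F test over all 4 weeks, with an adjusted p of 0.0314. No cause was tested for any of these.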

How the results depend on the processing

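Gsdmc and Gsdmd in weeks 3 and 4 against controls kept their direction and an adjusted p under 0.05 under all alternatives run, leave-one-out included (leave-one-out ranges: Gsdmc 4.97 to 6.13 and 5.85 to 6.94 on the log2 scale, Gsdmd 1.29 to 1.71 and 1.69 to 1.78). The number of members called moved more. Against controls it was 1 in weeks 1 and 2 with DESeq2, 1 in week 2 with the replicate block, and 1 in week 2 and 4 in week 3 with 1 fit of all libraries; leaving out a library gave 0 to 1, 0 to 1 and, in week 4, 2 to 4. All-gene shares called moved too, to 2.41% and 4.23% with DESeq2, 3.7% in week 2 with the block, and 2.75% and 33.9% in weeks 2 and 3 with 1 fit. Against sham, DESeq2 called 6.79%, 13.8%, 26.7% and 32.7% of genes in radiated skin and 16.6%, 11%, 20.1% and 10.3% in controls. Also against sham, the fit of all libraries called 6.18%, 16.4% and 32.3% in radiated skin of weeks 1 to 3. In controls of weeks 1 and 2 it called 5.65% and 7.87%. No filter gave 2.23% in radiated week 1, and 4.61% and 3.19% in controls of weeks 1 and 4. Total-count scaling gave 4.64% in week 1 controls. The block gave 2.76% in radiated week 2, and 0%, 0.0056% and 2.66% in controls of weeks 1 to 3. For radiated against sham skin in weeks 1 to 4, DESeq2 gave 3, 4 and (week 4) 5, the fit of all libraries 3, 5 and 5 in weeks 1 to 3, no filter 1 in week 1, and the block 0 in week 2; leave-one-out ranges were 0 to 1, 0 to 2, 1 to 4 and 2 to 4. For control against sham skin DESeq2 gave 3, 4 and (week 4) 3, total-count scaling 2 in week 1, no filter 3 in week 1 and 1 in week 4, the fit of all libraries 3 and 4 in weeks 1 and 2, and the block 0 in weeks 1 to 3; leave-one-out ranges were 0 to 3, 0 to 2, 1 to 4 and 0 to 3. Sham libraries share only numbers with the others, so their block pairs nothing. The change over weeks had 0 members called with total-count scaling and 0 without any replicate number. The Gsdmc sum in week 1 was called by DESeq2 (5.45) and without radiated replicate 1 (range 4.32 to 5.84), and the Gsdma sum without radiated week 4 replicate 4 (range 0.237 to 0.486). Signs turned only for values that were not called: with total-count scaling for Gsdma3 in week 3 (0.111), Gsdme in weeks 1 and 2 (0.0336 and 0.0313) and Gsdmc in week 2 controls against sham (-0.0804; block -0.445), and on leaving out libraries for Gsdma (-0.124 to 0.812) and its sum (-0.125 to 0.789) in week 3, Gsdma2 in week 2 (-0.0967 to 0.49), Gsdma3 in weeks 3 and 4 (-0.903 to 0.155 and -0.632 to 0.0701), Gsdme in weeks 1, 2 and 4 (-0.208 to 0.00636, -0.141 to 0.11 and -0.262 to 0.0526), and Gsdmc and its sum in week 2 controls against sham (-0.384 to 0.353 and -0.439 to 0.284). The cause was not tested. Among the gasdermin genes and their sums, the block changed no call against controls beyond Gsdmd in week 2, while the calls over all genes in week 2 went from 1 to 641, 5 listed pathway genes among them. Depth limits Gsdmc3 and Gsdmc4, and 3 to 4 libraries a group limit the rest.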
